A study of Mus musculus with 399 samples.

Results

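Ostn (osteocrin, also called musclin), Mstn (myostatin), Fst (follistatin), Il15 (interleukin-15), Fndc5 (the precursor of irisin) and Metrnl (meteorin-like) were followed in the soleus, a leg muscle with many slow fibres. The genes were chosen by name as secreted products of muscle or their precursors, and the 6 were found by identifier among the 56980 genes of the deposited count table. The series compared 2 inbred mouse strains, TH (TALLYHO/Jng), which develops obesity and diabetes, and B6 (C57BL/6J), its comparison. Females (F) and males (M) of each strain were weaned at 4 weeks onto chow or a high-fat diet (HF) and sampled at 5 weeks of age, after 1 week of feeding, or at 20 weeks, after 16 weeks. Every combination of sex, strain, diet and age made a group, so that 97 soleus libraries fell into 16 groups of 5 to 7 mice. No group carried an engineered allele or a drug, and TH and B6 are different inbred backgrounds, so a strain difference has no single named gene behind it.

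Myokines are proteins that skeletal muscle releases and that act on muscle itself or on other organs. Osteocrin binds the natriuretic peptide clearance receptor Npr3 and so spares natriuretic peptides. Myostatin is a TGF-beta family ligand that limits muscle growth through activin type II receptors, and follistatin binds and neutralises myostatin and activins. Irisin is cut from the membrane protein Fndc5, whose gene is a known target of the coactivator Ppargc1a. Interleukin-15 is a cytokine that signals through a receptor with the shared chains Il2rb and Il2rg, and meteorin-like is a secreted factor made in muscle, fat and macrophages.

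Reads assigned to genes came to between 4169650 and 22050846 per soleus library, with a median of 11488613. All 6 genes were among the 17520 that passed the filter on low counts. Mstn passed narrowly, with a median of 3 reads per library, at most 74, and none in 6 libraries. The slow myosin gene Myh7 lay between 7818 and 19635 CPM (reads scaled to library size) in every library, while the pancreatic genes Ins2 and Prss2 reached at most 0.153 and 0.178 CPM. The liver gene Alb reached 18.2 CPM and the adipocyte gene Adipoq ranged from 0.897 to 99.0 CPM.

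Compared per length of transcript, Fndc5 was the most abundant of the 6 in soleus, with a median of 99.8 FPKM (fragments per kilobase of transcript, scaled to library size). Ostn followed with 13.7 FPKM and Metrnl with 10.5 FPKM. Fst (1.28 FPKM) and Il15 (0.942 FPKM) were lower, and Mstn (0.0709 FPKM) was close to absent. In the other tissues of the series Ostn had no read in 95 of 96 liver, 76 of 96 fat and 109 of 110 pancreas libraries. Fndc5 had median levels of 0.221 FPKM in liver, 0.845 FPKM in fat and 0.105 FPKM in pancreas. Metrnl had medians of 5.10 FPKM in fat, 2.59 FPKM in pancreas and 0.999 FPKM in liver. Il15 in fat (median 0.971 FPKM) and Fst in fat (1.47 FPKM) lay near their soleus levels. These levels were set across tissues in 1 deposited table and were not tested.

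RefSeq start sites (GRCm38.p6) were at hand for Mstn, Fndc5 and Metrnl, and the 250 bases before each start are shown to set their E-boxes and base composition side by side; no value of the study was measured in these windows. Ostn, Il15 and Fst are named only. Capitals mark the E-box CANNTG, the letters recognised by myogenic factors such as Myod1 and Myog. The sequences read on the plus strand at chr1:53061390-53061639 for Mstn, chr4:129136749-129136998 for Fndc5 and chr11:121702177-121702426 for Metrnl.
Mstn: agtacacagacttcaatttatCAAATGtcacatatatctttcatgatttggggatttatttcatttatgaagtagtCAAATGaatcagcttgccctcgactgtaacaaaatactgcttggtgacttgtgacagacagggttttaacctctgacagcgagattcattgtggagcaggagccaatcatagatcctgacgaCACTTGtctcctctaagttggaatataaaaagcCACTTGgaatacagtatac
Fndc5: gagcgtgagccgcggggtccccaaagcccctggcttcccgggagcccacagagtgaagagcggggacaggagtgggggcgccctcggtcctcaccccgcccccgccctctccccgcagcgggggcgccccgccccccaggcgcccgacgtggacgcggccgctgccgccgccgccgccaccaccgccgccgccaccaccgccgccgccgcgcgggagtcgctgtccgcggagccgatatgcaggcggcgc
Metrnl: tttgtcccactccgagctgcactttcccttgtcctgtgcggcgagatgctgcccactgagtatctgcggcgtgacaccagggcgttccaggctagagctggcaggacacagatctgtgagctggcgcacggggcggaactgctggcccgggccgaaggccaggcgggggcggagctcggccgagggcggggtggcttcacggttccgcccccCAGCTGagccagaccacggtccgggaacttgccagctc
The Mstn window held 4 E-boxes, the Metrnl window 1 and the Fndc5 window 0, and 66.2% of 32851 windows of this length in the table held at least 1. On either strand, CCAAT was found once and TATAAA once in the Mstn window, and neither in the other windows. CCAAT was present in 33.8% and TATAAA in 12.4% of all windows. G and C made up 38.4% of the Mstn window, 80.8% of the Fndc5 window and 68.4% of the Metrnl window.

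Differences between groups were tested with edgeR's quasi-likelihood test on the deposited counts of all 97 libraries, with a Benjamini-Hochberg adjustment over the 17520 genes tested; genes with an adjusted p under 0.05 are referred to as called. Values given as log2 are fitted log2 fold changes ± SE, averaged over the sexes unless stated. For age on chow, 2 of the 6 genes were called in B6 (41.2% of all genes were) and 4 of 6 in TH (38.4%). The strain comparison called 2 of 6 on chow at 5 weeks (16.6%), 3 of 6 on the high-fat diet at 5 weeks (19.4%), 4 of 6 on chow at 20 weeks (48.8%) and 4 of 6 on the high-fat diet at 20 weeks (51.4%). Diet called none of the 6 in B6 at 5 weeks (0.982%), in TH at 5 weeks (0.702%) or in B6 at 20 weeks (0.114%), and 3 of 6 in TH at 20 weeks (67.7%). Sex called 1 of 6 on chow at 5 weeks (8.98%) and 1 of 6 at 20 weeks (1.71%). In most comparisons these counts lay near the share over all genes and say nothing about the 6 as a group.

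**Figure D1:**
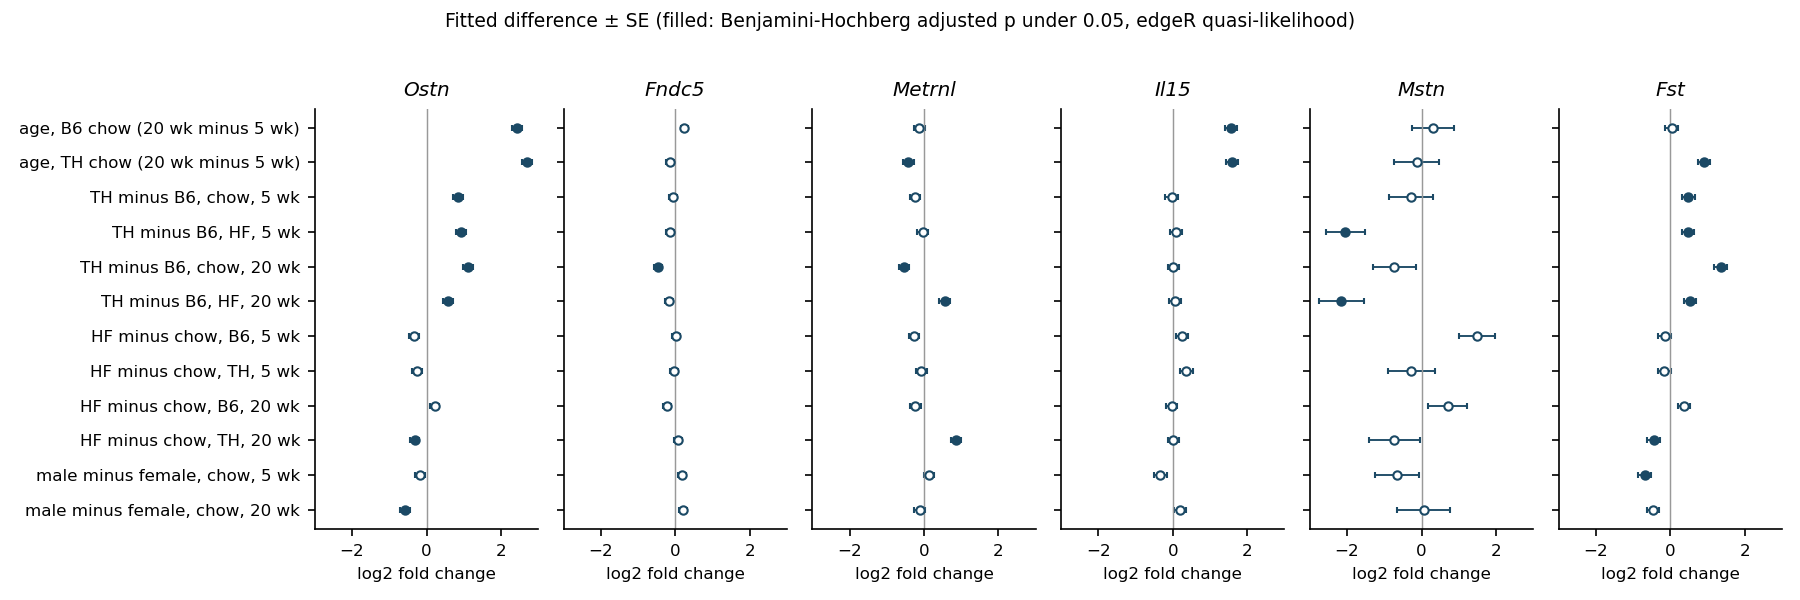
Fitted log2 fold change (x axis, ± SE) of each gene in 12 comparisons (rows), averaged over both sexes or, for sex, over both strains. Filled points passed the threshold of 0.05; Ostn and Il15 rose with age in both strains, and Ostn and Fst were higher in TH than in B6 in all 4 strain comparisons.

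Ostn had the widest spread of group means among the 6, 17.9-fold from the lowest to the highest. Its level rose several-fold between 5 and 20 weeks in both strains and was higher in TH than in B6 at each age and on each diet. At 5 weeks the B6 group means ± SD were 11.9 ± 2.51 CPM in F on chow (n = 6), 8.27 ± 1.92 in M on chow (n = 6), 8.75 ± 2.56 in F on HF (n = 6) and 7.00 ± 1.68 in M on HF (n = 7). The TH means at 5 weeks were 16.7 ± 3.61 CPM in F on chow (n = 6), 18.96 ± 6.39 in M on chow (n = 5), 13.99 ± 1.75 in F on HF (n = 7) and 15.8 ± 4.93 in M on HF (n = 6). All 8 of these groups lay below every library taken at 20 weeks.
At 20 weeks, with 6 mice in each group, the B6 means were 72.95 ± 13.5 CPM in F on chow, 38.6 ± 3.86 in M on chow, 65.9 ± 16.8 in F on HF and 58.1 ± 9.09 in M on HF. The TH means were 125 ± 21.1 CPM in F on chow, 106 ± 16.99 in M on chow, 94.5 ± 15.7 in F on HF and 90.6 ± 19.6 in M on HF. When the 16 groups were ordered by mean, 14 of the 15 neighbouring pairs overlapped; the only gap lay between B6 males on chow at 20 weeks (lowest library 32.5 CPM) and TH males on chow at 5 weeks (highest library 27.5 CPM).

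With age on chow, Ostn in B6 went from 5.89, 9.83 and 15.5 CPM (lowest, median and highest of 12 libraries at 5 weeks) to 32.5, 47.3 and 87.6 CPM (12 libraries at 20 weeks). In TH it went from 10.5, 17.4 and 27.5 CPM (11 libraries) to 82.5, 121 and 148 CPM (12 libraries). The ages did not overlap in either strain. The rise was 2.43 ± 0.14 on the log2 scale in B6 (adjusted p = 7.52e-26) and 2.70 ± 0.14 in TH (adjusted p = 5.63e-28), that is 5.37-fold and 6.48-fold. Its difference between strains, 0.27 ± 0.19, did not pass the test (adjusted p = 0.315). In whole muscle, fewer cells of a type and less RNA per cell cannot be told apart.
Lists of markers of other cells in the muscle were counted with age as well. Over all genes 41.2% were called in B6 and 38.4% in TH. The fibroblast list fell in 4 of 6 genes in each strain, and the tendon list in 5 of 5 in B6 and 3 of 5 in TH. The Schwann cell list fell in 4 of 4 and 3 of 4, and the endothelial list in 3 of 4 in each. The satellite cell list fell in 3 of 4 in each strain, and 1 of its 4 genes rose in B6. The adipocyte list rose in 5 of 8 genes in TH with none lower (median 0.98), while in B6 1 of 8 fell. In TH 6 of 10 fast-fibre genes fell and 1 rose, and 3 of 7 slow-fibre genes fell and 1 rose. In B6 1 of 10 fast-fibre genes fell and 1 rose, and 1 of 7 slow-fibre genes rose. The summed fast-fibre level in TH on chow nevertheless had a median of 19046 CPM at 5 weeks and 21452 CPM at 20 weeks. The summed fibroblast level on chow ranged from 465 to 2234.4 CPM at 5 weeks and from 186 to 796 CPM at 20 weeks in B6, and from 737 to 2011 and 282 to 700 CPM in TH. The summed level of the adipocyte list in TH on chow was 2739 to 5710 CPM at 5 weeks (median 4480) and 3903 to 6383 CPM at 20 weeks (median 4671). Adipoq, 1 of its 8 genes, had a median of 9.16 CPM and at most 99.0 CPM in soleus. Other genes of the list thus carried the sum, and it cannot be read as an amount of fat cells. The part of these cells in the age difference was not tested. Over 15 other settings the Ostn change with age lay between 2.39 and 2.46 in B6 and between 2.61 and 2.78 in TH, all called.

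Ostn was 1.80-fold higher in TH than in B6 on chow at 5 weeks (0.85 ± 0.14, adjusted p = 5.91e-07) and 1.89-fold on HF at 5 weeks (0.92 ± 0.13, adjusted p = 2.28e-08). At 20 weeks it was 2.18-fold higher on chow (1.12 ± 0.13, adjusted p = 1.35e-11) and 1.497-fold higher on HF (0.58 ± 0.13, adjusted p = 0.000114). With the sexes pooled, the strains overlapped in each of the 4 comparisons, least on chow at 20 weeks. There the lowest TH library had 82.5 CPM and the highest B6 library 87.6 CPM. Within each sex on chow at 20 weeks the strains did not overlap. Females had at least 90.3 CPM in TH and at most 87.6 CPM in B6, and males 82.5 and 44.5 CPM. At 5 weeks males were separate on both diets and females overlapped. On HF at 20 weeks the strains overlapped in both sexes. The summed level of fast-fibre genes also differed between strains, with a median of 30462 CPM in B6 (20312 to 49072) and 19903 CPM in TH (14485 to 31925). With that level as a covariate the Ostn strain difference on chow at 20 weeks was 1.10 ± 0.16 (adjusted p = 8.19e-08), and over 15 settings it stayed called with adjusted p between 2.32e-17 and 8.19e-08. The summed level of the adipocyte list, carried by genes other than Adipoq, was higher in TH (median 4399 CPM) than in B6 (2178 CPM). Its part in the Ostn difference was not tested.

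Males had less Ostn than females on chow at 20 weeks, by 0.58 ± 0.13 on the log2 scale (a difference of -0.58, adjusted p = 0.00381), and the ranges overlapped (32.5, 63.5 and 125 CPM in 12 males; 50.2, 88.9 and 148 CPM in 12 females). Within B6 the sexes were separate, with males from 32.5 to 44.5 CPM and females from 50.2 to 87.6 CPM, whereas in TH they overlapped. The difference of the sex effect between strains, 0.68 ± 0.26, was not called (adjusted p = 0.567), as 0.0742% of all genes and none of the 6 were. At 5 weeks the sex difference of Ostn was -0.17 ± 0.14 (adjusted p = 0.396).

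The receptors and other genes of the natriuretic peptide system were counted beside Ostn, and 5 of the 8 listed passed the filter. With age, 1 rose and 3 fell in B6 (41.2% of all genes were called) and 2 fell in TH (38.4%). Nppc, which encodes C-type natriuretic peptide, fell by 1.49 ± 0.33 in B6 (adjusted p = 0.000171) and by 1.79 ± 0.33 in TH (adjusted p = 8.95e-06) on the log2 scale. Npr1, the receptor for atrial peptide, fell by 0.51 ± 0.10 and 0.44 ± 0.10. Npr3, the receptor that osteocrin binds, fell by 0.83 ± 0.29 in B6 (adjusted p = 0.0182) and changed by 0.04 ± 0.30 in TH (adjusted p = 0.931). Npr2, the receptor for C-type peptide, rose by 0.32 ± 0.06 in B6.
Between strains on chow at 20 weeks, 2 of the 5 were higher in TH and none lower (48.8% of all genes were called): Npr3 by 1.03 ± 0.29 (adjusted p = 0.00344) and the cGMP-dependent kinase gene Prkg1 by 1.10 ± 0.31 (adjusted p = 0.00338). Both were lost when the slope of each library on gene GC content, described with the diet comparison, entered as a covariate, with Npr3 at 0.10 (adjusted p = 0.584) and Prkg1 at 0.23 (adjusted p = 0.198).

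**Figure D2:**
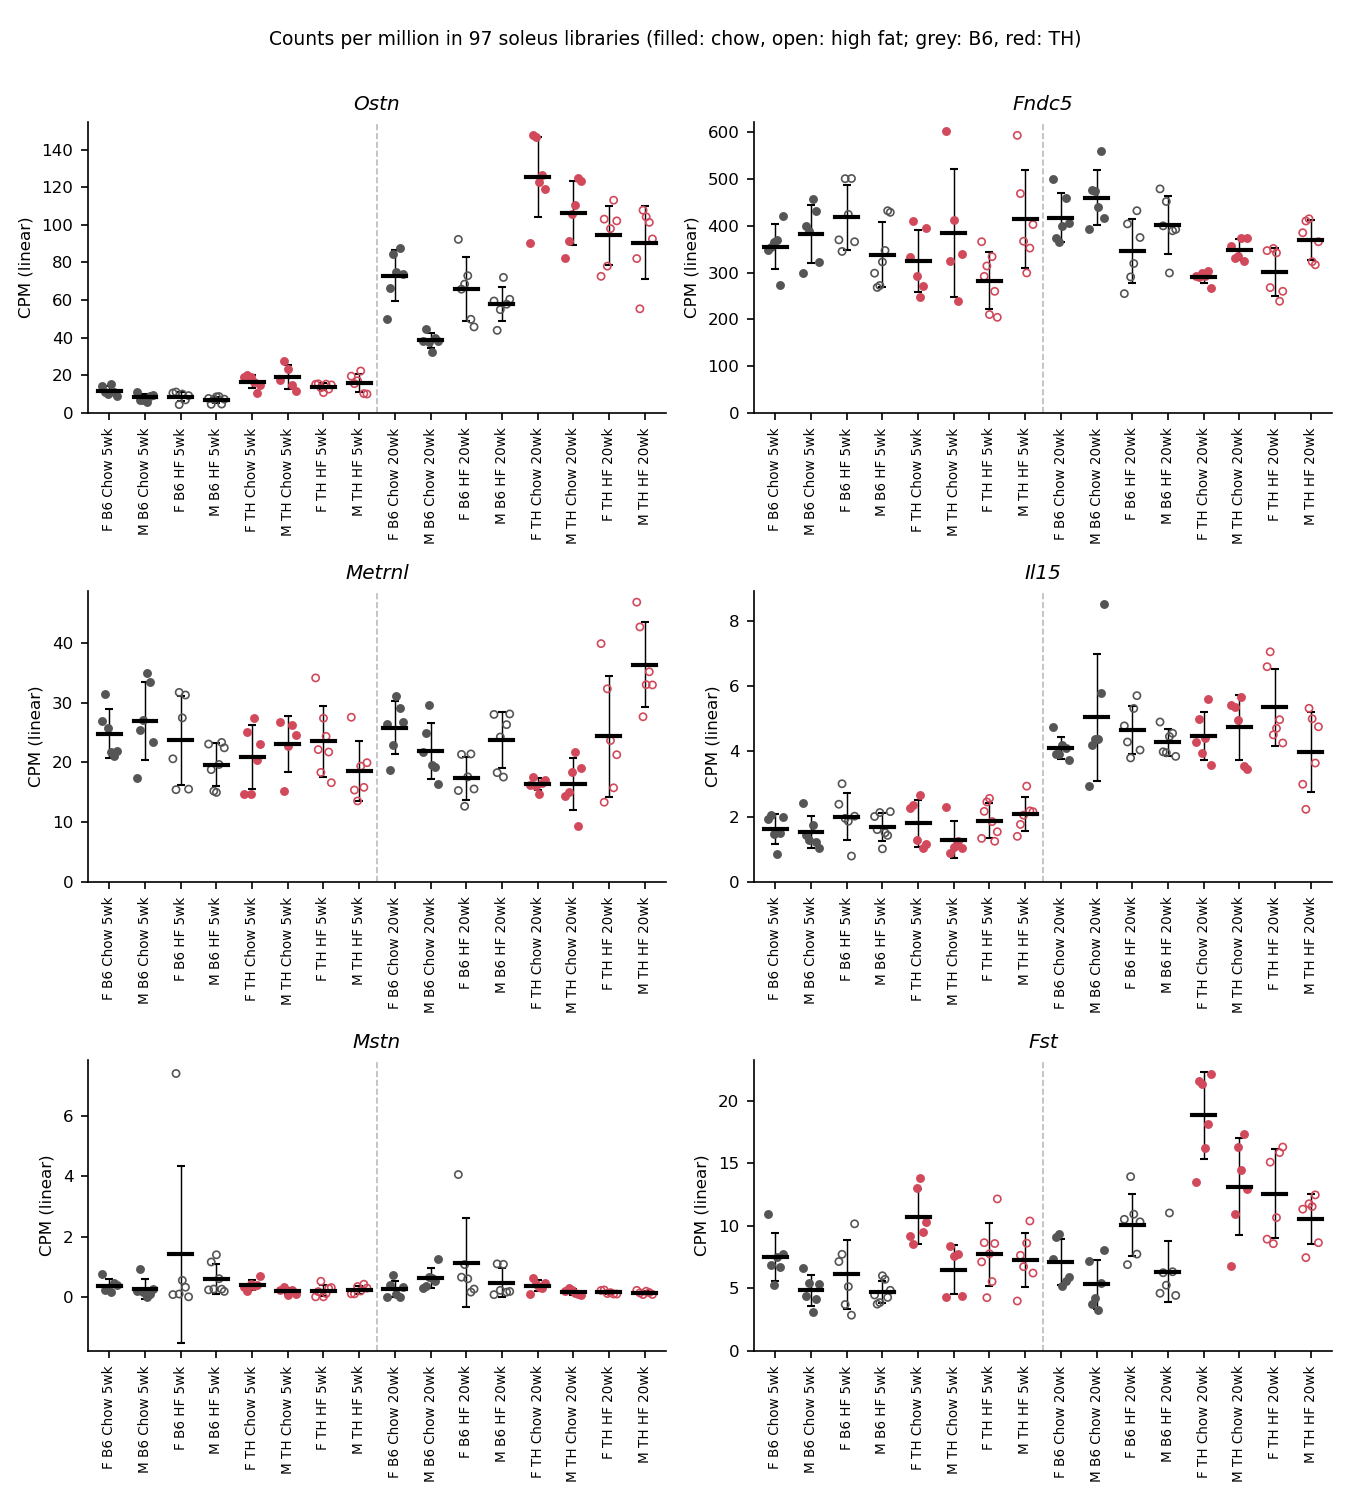
CPM of each gene (y axis, linear scale) in the 16 soleus groups (x axis: sex, strain, diet, age; the dashed line parts 5 from 20 weeks). Points are libraries, thick bars group means and thin bars ± SD; the Ostn libraries at 20 weeks all lie above those at 5 weeks, and 1 Mstn library reaches 7.42 CPM.

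Il15 was the other gene of the 6 that rose with age in both strains. On chow in B6 it went from 0.851, 1.48 and 2.41 CPM (lowest, median and highest at 5 weeks) to 2.94, 4.20 and 8.52 CPM at 20 weeks. In TH it went from 0.878, 1.25 and 2.68 CPM to 3.45, 4.68 and 5.68 CPM. The ages did not overlap in either strain. The rises were 1.56 ± 0.16 in B6 (2.94-fold, adjusted p = 8.42e-13) and 1.59 ± 0.17 in TH (3.02-fold, adjusted p = 1.55e-12), and their difference, 0.04 ± 0.23, was not called (adjusted p = 0.983).
On the high-fat diet the group means were 1.69 to 2.08 CPM at 5 weeks and 3.99 to 5.35 CPM at 20 weeks, in the same order by age. Strain, diet and sex gave no call for Il15. The strain difference on chow at 20 weeks was 0.01 ± 0.15, with a 95% interval of 0.820-fold to 1.24-fold, and the diet difference in TH at 20 weeks was 0.01 ± 0.15 (0.821-fold to 1.24-fold). Reads for Il15 were few, with a median of 29 per library.
Of the 6 tested genes of its receptor and signalling chain, 2 rose and 2 fell with age in B6 (41.2% of all genes were called), and 1 rose and 2 fell in TH (38.4%). The receptor chain Il2rg fell by 1.09 ± 0.18 (adjusted p = 3.94e-07) and by 1.30 ± 0.18 (adjusted p = 1.53e-08), and the kinase Jak3 by 0.64 ± 0.12 and 0.58 ± 0.12. In B6 the transcription factors Stat5b and Stat5a rose by 0.63 ± 0.14 and 0.54 ± 0.16.

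Fst, the antagonist of myostatin and activins, was higher in TH than in B6 at both ages and rose with age in TH. At 20 weeks on chow it ranged over 3.26, 5.76 and 9.38 CPM (lowest, median and highest) in 12 B6 libraries and over 6.76, 16.3 and 22.1 CPM in 12 TH libraries. Of the TH libraries only male 1 (6.76 CPM) lay within the B6 range, and the next lowest had 10.9 CPM. The difference was 1.35 ± 0.17 (2.55-fold, adjusted p = 2.83e-10), and it stayed between 1.04 and 1.40 and called in 15 other settings. On HF at 20 weeks TH was higher by 0.53 ± 0.17 (1.44-fold, adjusted p = 0.00636; 7.46, 11.4 and 16.3 CPM against 4.44, 7.32 and 13.9 CPM).
At 5 weeks the ranges overlapped more. TH had 4.34, 8.52 and 13.8 CPM and B6 had 3.14, 6.02 and 10.97 CPM on chow, a difference of 0.48 ± 0.17 (adjusted p = 0.0432). On HF the difference was 0.47 ± 0.17 (adjusted p = 0.0328). These 2 calls were lost in 7 and 6 of 15 other settings, with adjusted p up to 0.150 and 0.103, among them the fit without the 4 libraries rich in Schwann cell transcripts (0.39 and 0.44; adjusted p = 0.150 and 0.0656). The chow call was also lost without TH male 2, 3 or 4 on chow at 5 weeks (adjusted p = 0.0994, 0.0784 and 0.0836).

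With age on chow, Fst rose in TH by 0.91 ± 0.17 (1.87-fold, adjusted p = 1.51e-05), with 11 libraries at 5 weeks and 12 at 20 weeks overlapping. In B6 the change was 0.04 ± 0.17 (adjusted p = 0.873). The difference between the strains' age changes, 0.87 ± 0.24, passed the test (adjusted p = 0.0332), as it did for 3.07% of all genes, and Fst was the only one of the 6 called. Over 15 settings that adjusted p ran from 0.0139 to 0.0754: it was 0.0655 without the filter on low counts, 0.0754 without TH male 1 and 0.0604 without TH male 5 on chow at 5 weeks.
Sex also entered. On chow at 5 weeks males had 3.14, 5.32 and 8.41 CPM of Fst (11 libraries) and females 5.24, 8.85 and 13.8 CPM (12 libraries), overlapping, with a male minus female difference of -0.68 ± 0.18 (adjusted p = 0.00981). At 20 weeks it was -0.47 ± 0.17 (adjusted p = 0.157).
In order of group mean, Fst ran from 18.8 ± 3.46 CPM in TH females on chow at 20 weeks to 4.71 ± 0.878 CPM in B6 males on HF at 5 weeks, and all 15 neighbouring pairs overlapped.

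Mstn, the ligand that Fst binds, was near the limit of detection in this muscle. Group means lay between 0.137 and 1.41 CPM and every neighbouring pair overlapped. The 6 highest libraries were all B6 and held 7.42 CPM (74 reads), 4.06 CPM (17 reads), 1.40 CPM (33 reads), 1.26 CPM (19 reads), 1.16 CPM (13 reads) and 1.09 CPM (14 reads). The same 6 libraries were the 6 highest of all 97 for Myh4, the myosin heavy chain of the fastest fibres, with 2180 to 7744 CPM. The next libraries for Mstn, also B6, had 1.08 and 1.07 CPM, with 1573 and 1982 CPM of Myh4. The cut at 6 thus lay on a near tie in Mstn.
In deviations from the group means, Mstn and Myh4 were correlated with r = 0.737 and rho = 0.633 over 97 libraries (permutation p = 1e-05 for each, the smallest 100000 permutations can give; adjusted over 42 relations to 7e-05 and 5.25e-05). Without the 2 libraries farthest from the Myh4 median r was 0.674. Both values come from the same library and so share its depth.

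**Figure D3:**
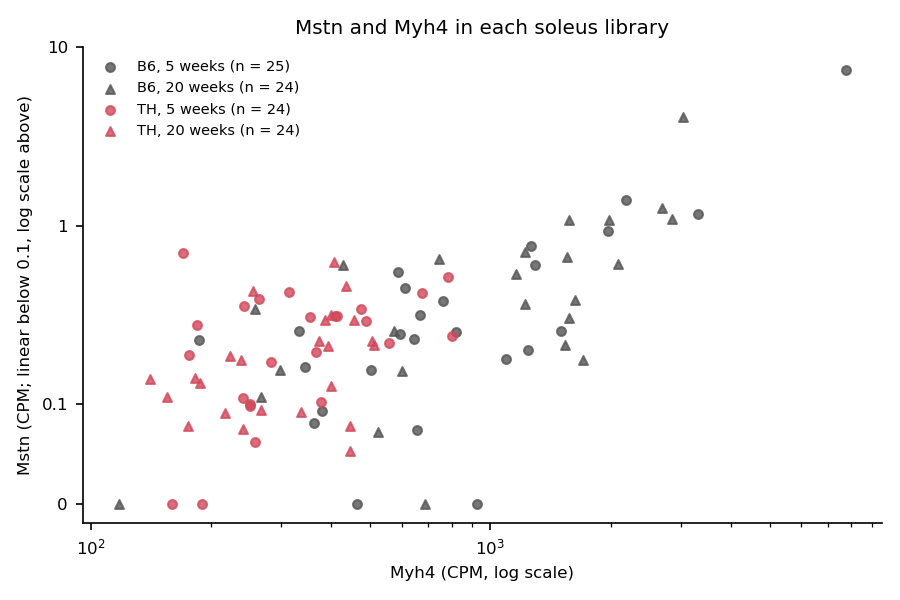
Mstn (y axis, CPM, linear below 0.1 and logarithmic above) against Myh4 (x axis, CPM, log scale) in the 97 soleus libraries, by strain and age. The 6 libraries at the upper right, all B6, carry the highest level of both genes, and no TH library exceeds 0.700 CPM of Mstn.

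Mstn was called lower in TH on the high-fat diet. At 5 weeks 13 TH libraries had 0, 0.196 and 0.516 CPM (lowest, median and highest) and 13 B6 libraries had 0, 0.258 and 7.42 CPM, and at 20 weeks 12 TH libraries had 0.0749, 0.135 and 0.227 CPM and 12 B6 libraries had 0.0721, 0.428 and 4.06 CPM. The fitted differences were -2.05 ± 0.52 (adjusted p = 0.00154) and -2.15 ± 0.60 (adjusted p = 0.00187). The strains' medians were close at 5 weeks and the gap lay in the upper B6 libraries. Without the 3 libraries above 3000 CPM of Myh4, the 5-week difference was -0.52 ± 0.50 (adjusted p = 0.556), while the 20-week difference was -1.79 ± 0.48 and stayed called (adjusted p = 0.00131). With the summed fast-fibre level as a covariate it was 0.62 ± 0.60 at 5 weeks and 0.037 ± 1.57 at 20 weeks. The adjusted p was 0.591 and 0.988 (ranges over 14 settings 0.000239 to 0.591 and 0.000555 to 0.988). SE was derived from the estimate and its F statistic, so at an estimate this near 0 the 1.57 is not a dependable spread. It was 0.60 in the fit without the covariate. On chow the differences were -0.29 ± 0.59 at 5 weeks (adjusted p = 0.816) and -0.73 ± 0.58 at 20 weeks (adjusted p = 0.292). With the fast-fibre covariate the sign turned on chow as well, to 1.74 (adjusted p = 0.0291) and 1.59 (adjusted p = 0.0323). With the GC slope covariate TH was called lower on chow at 20 weeks (-1.57 ± 0.55, adjusted p = 0.021), and the call on HF at 20 weeks was lost (-1.23 ± 0.57, adjusted p = 0.0708). The direction of the Mstn strain difference thus depended on the setting.

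Of the other ligands, receptors and regulators of the myostatin and activin pathway, 20 of 20 listed genes were tested. On chow at 20 weeks 9 were higher and 4 lower in TH (median 0.19, against 0.03 over all genes, of which 48.8% were called). The activin subunit genes Inhba and Inhbb were higher by 1.76 ± 0.39 (adjusted p = 0.000181) and 0.76 ± 0.17 (adjusted p = 0.000222), and the common Smad gene Smad4 by 0.61 ± 0.14. The receptor-activated Smad gene Smad3 was lower, by -0.68 ± 0.15 (adjusted p = 0.00016).
With age 5 rose and 5 fell in B6 (41.2% of all genes were called) and 4 rose and 6 fell in TH (38.4%). Gdf11, the closest relative of myostatin, fell by 0.88 ± 0.13 in B6 (adjusted p = 1.84e-08) and by 1.03 ± 0.13 in TH (adjusted p = 2.12e-10). Bmp1, a protease that frees myostatin from its propeptide, fell by 1.13 ± 0.10 and by 1.04 ± 0.10. Wfikkn2, a secreted binder of myostatin and Gdf11, rose by 1.33 ± 0.16 (adjusted p = 1.43e-10) and 1.05 ± 0.17 (adjusted p = 4.05e-07).

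Fndc5 was the most evenly expressed of the 6, with group means from 283 to 460 CPM and at least 1066 reads in every library. On chow at 20 weeks 12 B6 libraries had 365, 428 and 560 CPM (lowest, median and highest) and 12 TH libraries 268, 314 and 374 CPM. With the sexes pooled the ranges met only between 365 and 374 CPM. Within each sex the strains did not overlap. Females had at least 365 CPM in B6 and at most 304 CPM in TH, and males 393 and 374 CPM. TH was lower by -0.46 ± 0.11 (1.37-fold, adjusted p = 0.000329), and the call held in 15 other settings, from -0.48 to -0.23. On HF at 20 weeks the difference was -0.16 ± 0.11 (adjusted p = 0.195), and with the GC slope of each library as a covariate, described with the diet comparison, it was -0.37 ± 0.07 and called (adjusted p = 1.37e-05; 1.37e-05 to 0.647 over 15 settings).
With age the changes were 0.25 ± 0.11 in B6 (adjusted p = 0.0525) and -0.15 ± 0.11 in TH (adjusted p = 0.283). The B6 value lay at the threshold, with adjusted p from 0.0132 to 0.121 in 15 other settings and 8 of them calling it. The difference between these age changes was -0.40 ± 0.15 (adjusted p = 0.101); without the 4 libraries rich in Schwann cell transcripts it was -0.50 ± 0.15 (adjusted p = 0.0277), and without TH male 4 on chow at 5 weeks -0.47 ± 0.15 (adjusted p = 0.0456).
Of 6 genes upstream of Fndc5 or around irisin, 2 were higher and 2 lower in TH on chow at 20 weeks (48.8% of all genes were called). The higher genes, Adam10 (1.32 ± 0.42) and Itgav (0.83 ± 0.27), lost their calls with the GC slope covariate, at 0.22 (adjusted p = 0.430) and 0.14 (adjusted p = 0.510). Esrra, a nuclear receptor that works with Ppargc1a, was lower by -0.70 ± 0.12 (adjusted p = 1.44e-06) and the irisin receptor chain Itgb5 by -0.46 ± 0.13 (adjusted p = 0.00221). With age 3 of these 6 rose and 1 fell in B6 (41.2% of all genes were called), and 2 rose in TH (38.4%). Itgb5 rose by 0.94 ± 0.13 in B6 and 0.58 ± 0.13 in TH. Esrra rose in B6 by 0.60 ± 0.12, and Ppargc1a rose in TH by 1.60 ± 0.36 (adjusted p = 0.000257). Ppargc1b also rose in B6. That call was lost without the filter on low counts (adjusted p = 0.0618), with the fast-fibre covariate (0.0583) and without the Schwann-rich libraries (0.0689).

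Among the called responses of the 6 genes to the high-fat diet, that of Metrnl in TH at 20 weeks was the largest (an estimate for Mstn in B6 at 5 weeks, 1.49 ± 0.48, was larger and not called, adjusted p = 0.130). In TH males at 20 weeks the 6 chow libraries had 9.43, 16.8 and 21.7 CPM (lowest, median and highest) and the 6 HF libraries 27.6, 34.1 and 46.8 CPM. The groups did not overlap, and the rise was 1.15 ± 0.20 (2.22-fold, adjusted p = 1.61e-05), the only call among the 6 in TH males (63.2% of all genes were called). In TH females at 20 weeks the chow libraries lay between 14.8 and 17.6 CPM and the HF libraries between 13.3 and 39.9 CPM, overlapping, with a difference of 0.57 ± 0.20 (adjusted p = 0.0665, where 3.24% of all genes and none of the 6 were called). DESeq2 gave 0.58 in the females with an adjusted p of 0.0361, within a range of 0.0361 to 0.702 over 15 settings. The male minus female difference of these responses, 0.58 ± 0.28, was not called (adjusted p = 0.605), as 0.00571% of all genes were.
Over both sexes Metrnl rose in TH by 0.86 ± 0.14 (1.82-fold, adjusted p = 2.24e-06), against -0.23 ± 0.14 in B6 (adjusted p = 0.453). At 5 weeks, after 1 week of feeding, diet gave -0.07 ± 0.14 in TH and -0.27 ± 0.14 in B6, neither called (adjusted p = 0.996 and 0.483).

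The strain difference of Metrnl at 20 weeks took opposite signs on the diets. On chow 12 TH libraries had 9.43, 16.4 and 21.7 CPM and 12 B6 libraries 16.3, 23.9 and 31.04 CPM, so that TH was lower by -0.54 ± 0.14 (adjusted p = 0.00141). On HF the TH libraries had 13.3, 32.6 and 46.8 CPM and the B6 libraries 12.7, 19.8 and 28.1 CPM, so that TH was higher by 0.55 ± 0.14 (adjusted p = 0.000777). With the sexes pooled the ranges overlapped in both. On chow the females alone were separate (14.8 to 17.6 CPM in TH, 18.8 to 31.04 CPM in B6), and the males overlapped. With age on chow Metrnl fell in TH by 0.42 ± 0.14 (adjusted p = 0.0154; 0.0561 without the filter on low counts, and 0.057 with the GC slope covariate, where the difference was -0.24 ± 0.11) and differed by -0.12 ± 0.14 in B6 (adjusted p = 0.505).
By group mean, Metrnl was highest in TH males on HF at 20 weeks (36.4 ± 7.06 CPM) and lowest in TH males (16.3 ± 4.34 CPM) and TH females (16.4 ± 0.980 CPM) on chow at that age, and all 15 neighbouring pairs overlapped. Kit, a receptor that meteorin-like binds, fell with age by 1.81 ± 0.25 in B6 and by 1.68 ± 0.26 in TH. Metrn, the paralogue of Metrnl, was not called with age. Between strains on HF at 20 weeks, 1 of these 2 genes was called higher and 1 lower in TH (51.4% of all genes were called). Diet in TH at 20 weeks called 1 of the 2, which was higher (67.7%). In macrophage markers, TH on HF at 20 weeks had a summed level of 25.2 to 71.7 CPM (median 54.4), against 19.4 to 49.6 CPM (median 25.4) in TH on chow, and 3 of the 5 genes were called higher. In the adipocyte list 4 of 8 genes were called higher and none lower (median 0.75, and 1.12 in males). Its summed level, carried by genes other than Adipoq, was 3903 to 6383 CPM on chow (median 4671) and 3876 to 5598 CPM on HF (median 4415). Over all genes 67.7% were called for diet in TH at 20 weeks, and the counts of both lists lay below that share. The part of macrophages and fat cells in the Metrnl rise was not tested.

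The high-fat diet in TH at 20 weeks also called Ostn and Fst, both lower. Ostn had 82.5, 121 and 148 CPM on chow and 55.4, 99.7 and 113 CPM on HF, a difference of -0.32 ± 0.13 (adjusted p = 0.0239). Fst had 6.76, 16.3 and 22.1 CPM on chow and 7.46, 11.4 and 16.3 CPM on HF, a difference of -0.45 ± 0.17 (adjusted p = 0.0151). Diets overlapped for both genes. In B6 the same comparison gave 0.22 ± 0.13 for Ostn and 0.37 ± 0.17 for Fst, neither called (adjusted p = 0.452 and 0.447). For Ostn this B6 value averages sexes that went opposite ways by group mean. B6 males had 38.6 CPM on chow and 58.1 CPM on HF, and B6 females 72.95 and 65.9 CPM. The B6 diet response was not tested in each sex alone. The diet response differed between strains for 3 of the 6 genes, against 63.4% of all genes: Ostn by -0.54 ± 0.18 (adjusted p = 0.00855), Fst by -0.82 ± 0.24 (adjusted p = 0.00268) and Metrnl by 1.09 ± 0.20 (adjusted p = 4.88e-05).

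This comparison moved together with the GC content of genes. For each library the slope of log2 CPM, as a deviation from each gene's mean over all libraries, was taken on the GC content of the longest transcript (17252 of 17520 genes had a value). In TH males at 20 weeks the slope, in log2 units per 10 percentage points of GC, ran from -0.82 to 0.52 on chow (median -0.12) and from 0.37 to 1.07 on HF (median 0.63). In TH females it ran from -0.71 to -0.14 on chow (median -0.54) and from -0.58 to 0.72 on HF (median -0.13). It was higher on HF by median in both sexes, and the diets overlapped in both. Metrnl (58.1% GC, the 91.6th percentile of tested genes) and Fndc5 (53.5%) lie on the GC-rich side of the median of 49.9%. Ostn (40.3%), Mstn (38.1%) and Fst (44.3%) lie on the poor side, and Il15 (49.6%) lies at the median.
With the slope as a covariate, 19.2% of all genes were called for diet in TH at 20 weeks. Metrnl was higher by 0.42 ± 0.12 (adjusted p = 0.00654), Ostn was at -0.13 ± 0.12 (adjusted p = 0.512, from 0.0149 over 15 settings), Fst was at 0.0092 ± 0.13 (adjusted p = 0.976, from 0.0124), and Fndc5 changed sign from 0.07 ± 0.11 to -0.27 ± 0.08 (adjusted p = 0.0102). In TH males alone Metrnl was higher by 0.65 ± 0.16 (adjusted p = 0.00236). The strain difference of the diet response was then called for 4.49% of all genes and for Metrnl only among the 6 (0.52 ± 0.16, adjusted p = 0.044), with Ostn at -0.27 ± 0.18 (adjusted p = 0.374) and Fst at -0.19 ± 0.19 (adjusted p = 0.586). For Metrnl the strain difference on chow at 20 weeks became -0.26 ± 0.11 (adjusted p = 0.0569) and on HF 0.26 ± 0.11 (adjusted p = 0.0451). The slope is computed from the same counts, so group differences that go along with GC content and a technical bias of that form cannot be told apart by it.

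**Figure D4:**
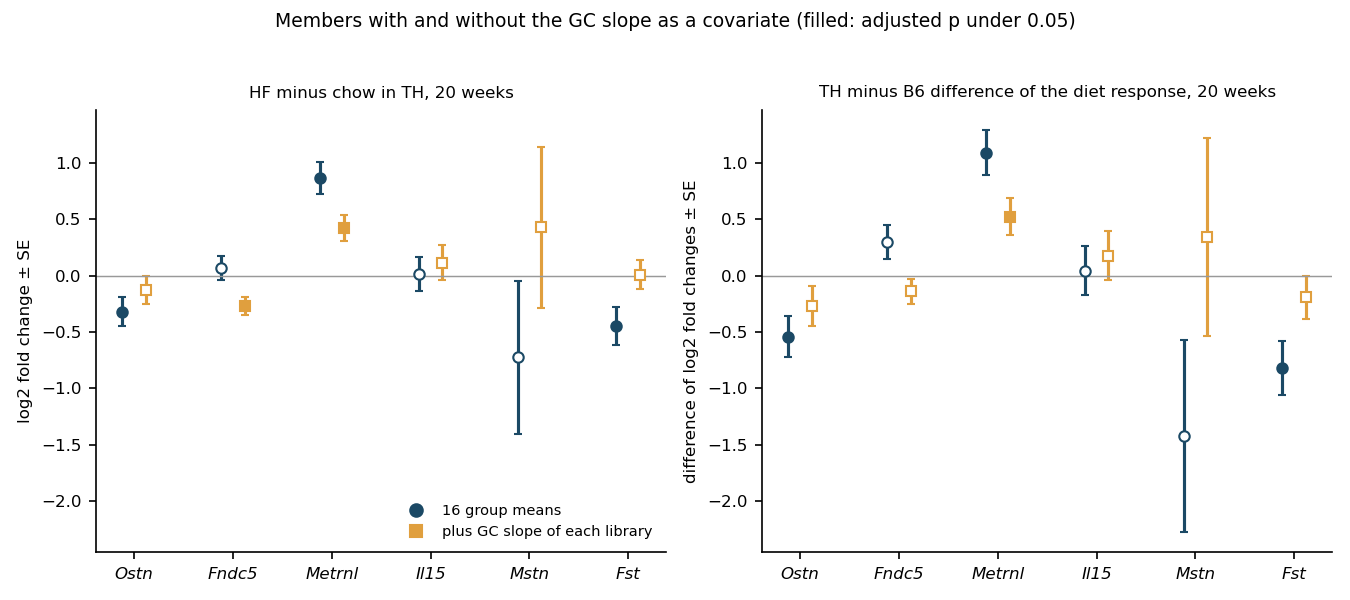
Fitted diet difference in TH at 20 weeks (left, log2 fold change ± SE) and its difference from B6 (right) for the 6 genes on the x axis, with 16 group means (circles) and with the GC slope of each library added (squares). Filled symbols have an adjusted p under 0.05; Metrnl is filled in all 4 cases, and Ostn and Fst lose their fill with the slope.

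Among mice of the same group, levels of several of the 6 genes varied together. Of 15 pairs, 7 had an adjusted p under 0.05 by Pearson's r, and Mstn with Fst also passed by Spearman's rho (adjusted p = 0.0117), in log2 CPM deviations from the group means (97 libraries, permutation test with 100000 resamples within groups, two-sided). Fndc5 and Metrnl were correlated with r = 0.487 and rho = 0.515 (adjusted p = 0.00015 and 5e-05; r = 0.529 without the 2 libraries farthest from the median of Fndc5). Fndc5 and Fst had r = -0.557 and rho = -0.567 (adjusted p = 0.00015 and 5e-05; r = -0.547 without 2), and Fst and Metrnl had r = -0.530 and rho = -0.530 (same adjusted p; r = -0.543 without 2). Ostn and Fst had r = 0.412 and rho = 0.425 (adjusted p = 0.0006 and 0.000412; r = 0.371 without 2). Il15 was in none of the 7 pairs.
The GC slope varied within groups too. Its correlation with Fndc5 was r = 0.756 and rho = 0.756, with Metrnl r = 0.674 and rho = 0.629 and with Fst r = -0.663 and rho = -0.670 (permutation p = 1e-05 for each, adjusted p = 7e-05 for r and 5.25e-05 for rho; r = 0.741, 0.638 and -0.640 without 2). The summed level of the adipocyte list varied with the same genes within groups, with r = -0.587 and rho = -0.583 for Fndc5, r = -0.590 and rho = -0.598 for Metrnl and r = 0.490 and rho = 0.522 for Fst (adjusted permutation p = 7e-05, 7e-05 and 0.000105 for r and 5.25e-05 for each rho). Without 2 libraries r was -0.561, -0.588 and 0.484. That sum is carried by genes other than Adipoq, whose median was 9.16 CPM, and cannot be read as an amount of fat cells. Once the slope was removed from each gene, 0 of the 15 pairs had an adjusted p under 0.05 by r. The part of the adipocyte list's sum in the pairs was not tested.

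By correlation of group means of log2 CPM over the 16 groups, the genes most like Ostn were Pkdrej (r = 0.980), Cyfip2 (r = 0.979) and Cuzd1 (r = 0.970), among genes with a mean log2 CPM of at least 1. Within groups the same genes had r = 0.19, 0.37 and 0.22 with Ostn over 97 libraries. For Il15 the nearest were Ppip5k1 (r = 0.973), Fbxo40 (r = 0.957) and Hipk2 (r = 0.956), with within-group r of 0.03, -0.10 and -0.04.
For Fst the nearest were Cped1 (r = 0.957), Mb21d2 (r = 0.942) and Prox1 (r = 0.930), with within-group r of 0.56, 0.25 and 0.71. Metrnl was nearest to Ssr4 (r = 0.948), Rpl39 (r = 0.925) and Rps15a (r = 0.923), and Fndc5 to the mitochondrial genes Lonp1 (r = 0.881), Mrpl9 (r = 0.875) and Letm1 (r = 0.863), with within-group r of 0.81, 0.69 and 0.79 for the last 3. The genes nearest to Mstn, Gpd2 (r = 0.835), Tbx3 (r = 0.828) and Sorl1 (r = 0.804), were less like it. These correlations describe group means that share age, strain and library composition.

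Other myokine genes were counted for the same comparisons. Of 17 further myokine genes tested, 9 fell and none rose with age in B6 (median -0.96, against -0.05 over all genes), and 7 fell and 2 rose in TH (median -0.05, against -0.04). Over all genes 41.2% were called in B6 and 38.4% in TH, and in TH the list's median lay near that of all genes. Sparc, a matrix-binding glycoprotein, fell by 1.74 ± 0.13 in B6 (adjusted p = 1.06e-19) and 1.56 ± 0.13 in TH (adjusted p = 3.95e-17). Erfe, which encodes myonectin, fell by 1.98 ± 0.27 and 1.93 ± 0.27. The growth factors Igf1 and Igf2 fell in B6 by 1.85 ± 0.26 and 1.87 ± 0.24. On chow at 20 weeks 5 of the 17 were higher in TH and none lower (48.8% of all genes were called). With the GC slope covariate Vegfa (adjusted p = 0.143) and Nampt (adjusted p = 0.523) lost their calls. The neurotrophin gene Bdnf was higher by 1.59 ± 0.31 (adjusted p = 2.2e-05) and the chitinase-like gene Chi3l1 by 1.66 ± 0.35 (adjusted p = 7.04e-05).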

How the data were processed

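Poly(A) RNA of 97 soleus samples was sequenced as stranded libraries, per the labels' protocols. The submitters' processing notes name the build GRCm39 and the tools HISAT2 2.2.1, Trimmomatic 0.39, SAMtools, DESeq2 and DESeq. Which counter made the table, and with which strand setting, is not given in these sources. Tests used the authors' deposited raw counts per gene; the deposited FPKM values served to compare levels between genes. Symbols came from GENCODE M21 (52073 of 56980 identifiers).

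Groups came from the labels, with 1 library per mouse. edgeR 4.0.16 (R 4.3.3) fitted 16 group means with TMM factors after filterByExpr (minimum count 10, total 15), giving 18 contrasts by quasi-likelihood F tests with Benjamini-Hochberg adjustment. SE was obtained by dividing the log2 fold change by the root of the F statistic. Genes, lists and tests were chosen with earlier results of these data known. Genes named besides the 6 were, per list and contrast described, called ones among the 4 with the smallest p, and the 3 most alike in group means. On simulated data for diet in TH at 20 weeks (17130 genes), 75 of 99 genes changed by log2 1 and 34 of 99 by 0.5 were found, with 4 unchanged genes among 113 calls. The simulated counts were drawn independently, with no shift along GC content, so error of that kind was not measured. Replicate numbers were not taken to pair samples (mean r of deviations 0.004 for 706 same-numbered pairs, 260 of them over 0.1, and 0.00027 for pairs with different numbers). Alternatives were RLE factors, no count filter, DESeq2 1.42.0, the compared groups alone, the replicate number as a block, a fast-fibre covariate, and fits without B6 female 5 on HF at 5 weeks or each TH male on chow at 5 weeks. Added after seeing the data were the GC slope as a covariate and fits without libraries above 1000 CPM of summed Schwann cell markers or above 3000 CPM of Myh4.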

Additional observations from a re-analysis of the deposited data

Results flagged for a closer look

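In 96 sets of libraries (6 genes in 16 groups), 5 held 1 library far from the rest by Dixon's test, and chance gives about 1 in 20. For Mstn these were B6 female 2 on HF at 5 weeks with 7.42 CPM (others 0 to 0.547), B6 female 1 on HF at 20 weeks with 4.06 CPM (others 0.156 to 1.07) and B6 male 2 on chow at 5 weeks with 0.931 CPM (others 0 to 0.248). The first of these also had the highest Myh4 level, 7744 CPM, and the second 3036 CPM. Il15 was at 2.29 CPM in TH male 1 on chow at 5 weeks (others 0.878 to 1.25), from 19 reads. Fst was at 11.03 CPM in B6 male 4 on HF at 20 weeks (others 4.44 to 6.33).

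The response to the high-fat diet at 20 weeks differed between TH and B6, by a test of the difference itself (edgeR quasi-likelihood), for Ostn (-0.54, adjusted p = 0.00855), Fst (-0.82, adjusted p = 0.00268) and Metrnl (1.09, adjusted p = 4.88e-05). With the GC slope of each library as a covariate the adjusted p was 0.374 for Ostn, 0.586 for Fst and 0.044 for Metrnl. The change with age on chow differed between strains for Fst (0.87, adjusted p = 0.0332), a call lost in 3 of 15 other settings (adjusted p up to 0.0754).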

How the results depend on the processing

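No call was lost under RLE factors or under the replicate block, which left all 108 gene results and the number of the 6 genes called in each contrast as they were. Of 97 libraries, 24 correlated best, among those of other groups, with a library of the same number. The share that chance would give was not computed.
The number of the 6 genes called moved by over 1.5 times as follows. For strain on chow at 5 weeks (2 called) it was 1 without the count filter, without the 4 Schwann-rich libraries and without the 3 Myh4-rich libraries, and 1 to 2 with each TH male on chow at 5 weeks left out. For strain on HF at 5 weeks (3 called) it was 1 with only the groups compared, with the fast-fibre covariate and without the Myh4-rich libraries. Mstn had no result in the fits of the compared groups alone. In that setting the Fst call was lost, and the Mstn call was not tested. For diet in TH females (0) DESeq2 gave 1. For diet in TH males (1) the GC slope gave 2. For sex on chow at 20 weeks (1) the groups alone gave 2. For strain by diet (3) the GC slope gave 1. For strain by age (1) the fit without the filter gave 0, the groups alone 2, the fit without Schwann-rich libraries 2, and leaving out each TH male 0 to 2. Smaller moves were 2 to 3 for age in B6 and for diet in TH, 3 to 4 for age in TH and for strain on HF at 20 weeks, and 4 to 5 for strain on chow at 20 weeks. The 7 pairs correlated by r became 0 with the GC slope removed.
Among results called with or without the covariate, signs turned for the Mstn strain difference with the fast-fibre covariate. It was 1.74 on chow and 0.62 on HF at 5 weeks, and 1.59 on chow and 0.037 on HF at 20 weeks. The last of these lay close to 0. With the GC slope, signs turned for Fndc5 (diet in TH -0.27, in TH males -0.33) and Fst (diet in TH 0.0092, with an SE of 0.13). Estimates called in neither fit also turned with the GC slope, such as diet in TH males for Fst and Mstn. The cause was not tested.
Over all genes, the GC slope took calls for diet in TH from 11861 to 3368, in TH males from 11064 to 3331, in TH females from 568 to 11, for strain by diet from 11102 to 786, for strain on chow from 8547 to 5149 at 20 weeks and from 2904 to 4804 at 5 weeks, and for strain by age no further than 1.5 times. Diet in TH females gave 57 calls without the filter, 1830 with DESeq2, 0 with the groups alone (DESeq2 called 1830 and edgeR 568), 1082 without B6 female 5 on HF at 5 weeks, 1237 without the Schwann-rich libraries and 1170 or 1025 without TH male 2 or 4. Strain by age (538) gave 180, 2255, 1038 and 2074 in the same settings but DESeq2, and 186 to 1628 with each TH male left out. Sex at 5 weeks (1574) gave 812 without the filter, 1026 without the Schwann-rich libraries and 587 or 3613 without TH male 1 or 2; sex at 20 weeks (300) gave 190 without the filter, 789 with the groups alone and 1007 with the GC slope. Diet in B6 at 5 weeks (172) ranged from 68 to 790, in TH at 5 weeks (123) from 67 to 494, and in B6 at 20 weeks (20) from 0 to 115. Strain by sex (13) gave 34 with DESeq2 and 63 with the GC slope, and diet by sex in TH (1) gave 0 to 4.
Settings using the GC slope or leaving out Schwann-rich or Myh4-rich libraries were chosen after seeing the data. Mstn (median 3 reads) and Il15 (29 reads) are limited by depth.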
